A study of Mus musculus with 9 samples.

Results

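The 10 genes described here encode subunits of the transcription factor NF-kB, proteins that restrain it, and products of genes it switches on: Nfkb1, Nfkb2, Rela, Relb, Nfkbia, Nfkbiz, Tnfaip3, Tnf, Ptgs2 and Birc3. They were picked by name, while earlier results of these data were known, and are 10 of the 32285 genes in the matrices. Single nuclei were sequenced from the hearts of 9 male wild-type mice aged 9 to 10 weeks. NS-Sham mice (3 hearts) received normal saline and had the chest opened without arterial occlusion. NS-I/R mice (3 hearts) received saline and had the left anterior descending coronary artery (LAD) tied for 45 min, followed by 24 h of reperfusion. Enpa-I/R mice (3 hearts) had the same ischemia and reperfusion and received the TLR7 antagonist enpatoran, 5 mg/kg in each of 2 intraperitoneal injections, the first 1 h before ischemia. The second injection has 2 different times in the labels. No sham heart received enpatoran, so its effect without injury cannot be told apart from its effect on injury. The libraries hold nuclear RNA of heart tissue that was frozen and powdered, so infarcted and spared muscle were not separated.

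NF-kB is a pair of Rel-family proteins that waits in the cytoplasm, bound to an inhibitor of the IkB family. Toll-like receptors and TNF receptors activate kinases that mark the inhibitor for destruction, and the freed pair enters the nucleus. Among the genes it then activates are its own restraints, so that the RNA of Nfkbia or Tnfaip3 is widely read as a trace of recent signalling. In the injured heart the pathway is known in resident vascular cells, in fibroblasts, in cardiomyocytes and in the neutrophils and macrophages that arrive after reperfusion.

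RefSeq promoter sequences (build GRCm38.p6) were at hand for 7 of the 10 genes. The 250 bases before the start site were searched on both strands for the 10-base NF-kB consensus, overlapping matches counting as 1 stretch. The consensus was found in 3 of these 7 genes, Nfkb2, Nfkbia and Tnfaip3, against 4.46% of 27025 RefSeq genes with such a sequence. The last 150 bases before the start of these 3 are printed on the gene's strand, with the matching stretches in capitals, because Nfkbia and Tnfaip3 encode restraints on the factor and Nfkb2 a subunit of it.
Nfkbia: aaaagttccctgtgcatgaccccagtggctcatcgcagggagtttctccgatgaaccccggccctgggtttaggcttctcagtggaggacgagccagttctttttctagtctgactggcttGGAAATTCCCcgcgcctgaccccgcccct
Tnfaip3: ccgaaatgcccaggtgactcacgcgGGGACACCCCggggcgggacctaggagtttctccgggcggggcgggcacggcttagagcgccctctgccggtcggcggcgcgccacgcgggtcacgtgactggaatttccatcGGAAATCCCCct
Nfkb2: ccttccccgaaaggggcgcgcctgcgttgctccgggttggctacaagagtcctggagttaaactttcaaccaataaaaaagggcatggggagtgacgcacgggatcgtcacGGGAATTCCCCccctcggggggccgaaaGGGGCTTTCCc
The Nfkbia sequence lies on the minus strand at chr12:55492648-55492797, and its stretch begins at position -29 from the start site. The Tnfaip3 sequence is that of the first of 2 listed start sites, on the minus strand at chr10:19015411-19015560, with stretches at -125 and -12. The Nfkb2 sequence is that of the first of 3 listed start sites, on the plus strand at chr19:46304587-46304736, with stretches at -39 and -11. A match describes letters and not binding, which was not measured. The windows of Rela, Tnf, Ptgs2 and Birc3 held no match to these letters.

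Of 56766 barcodes, 41979 were kept as nuclei, 3160 to 6471 per heart with a median of 2365 to 3264 UMIs (unique molecules counted per nucleus). 231 of the barcodes among kept nuclei occurred in 2 or more libraries. The nuclei fell into 27 clusters and 14 classes named from marker genes, each name meaning "like" that cell type; 8 classes had at least 25 nuclei in every heart and were tested. Cluster 12, led by Tnc, Adam12 and Bnc2 and carrying fibroblast markers, kept its number and held 5 nuclei of sham hearts, 1419 of NS-I/R hearts and 722 of Enpa-I/R hearts. Cluster 10, led by the heat shock genes Hspa1a and Hspa1b, had 442 nuclei in NS-I/R hearts, 296 of them in replicate 1, 10 in Enpa-I/R hearts and 0 in sham hearts. Neutrophils numbered 5, 1363 and 327 in the same order of groups. In 3 classes different clusters among these 27 held the sham and the injured nuclei. Cardiomyocyte cluster 4 held 451, 1024 and 447 nuclei of the sham hearts against 0, 0 and 15 of the NS-I/R hearts, and cluster 2 held 19, 25 and 16 against 364, 479 and 369. Endothelial cluster 5 held 470, 1121 and 511 against 41, 9 and 78, and cluster 9 held 2, 2 and 3 against 221, 237 and 265. Macrophage cluster 16 held 18, 22 and 10 against 219, 201 and 307, the remaining macrophages lying in cluster 14. A finer clustering (Leiden resolution 2) divided fibroblasts and pericytes too. A fibroblast cluster there held 280, 691 and 212 nuclei of sham hearts against 1, 1 and 41 of NS-I/R hearts. Another held 0, 1 and 3 against 367, 414 and 70, and further ones held nuclei of both groups. A pericyte cluster there held 200, 417 and 153 against 34, 26 and 112, and another 91, 181 and 107 against 287, 307 and 299. Levels are CPM, the counts of a gene scaled to a total of 1000000 UMIs in the class. Each test is edgeR's quasi-likelihood test over the summed counts of 9 hearts, with p adjusted over all genes of the class and a threshold of 0.05. The labels do not say that hearts of a group were processed independently beyond being separate samples.

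After ischemia and reperfusion, RNA of 9 of the 10 genes rose when all nuclei of a heart were summed, against 23.9% of all genes tested. The rise was smallest for the subunit Rela and largest for the cytokine Tnf and the prostaglandin synthase Ptgs2. Tnf lay at 0.312, 0.418 and 0.357 CPM in sham, at 4.45, 2.62 and 2.77 in NS-I/R and at 1.11, 1.99 and 1.19 in Enpa-I/R hearts, with no overlap between sham and NS-I/R. Its log2 fold change was 3.00 ± 0.357 (SE, edgeR adjusted p = 0.00013). Ptgs2 lay at 2.06, 2.83 and 4.42 CPM in sham, at 46.2, 18.9 and 14.4 in NS-I/R and at 8.91, 8.68 and 5.22 in Enpa-I/R hearts. The first NS-I/R heart stood well above the other two. Its log2 fold change was 2.98 ± 0.465 (SE, edgeR adjusted p = 0.000605), and 2.33 without that heart (edgeR adjusted p = 0.000676). Nfkbiz lay between 26.0 and 26.3 CPM in the 3 sham hearts, at 136, 95.2 and 87.8 in NS-I/R and at 57.0, 66.6 and 57.2 in Enpa-I/R hearts, so that the 3 groups did not overlap. The other called genes rose by log2 fold changes of 0.47 (Rela) to 1.98 (Tnfaip3). Nfkb1 stood apart: 241, 241 and 233 CPM in sham against 319, 291 and 276 in NS-I/R hearts differed by 0.19 ± 0.0947 on the log2 scale (SE, edgeR adjusted p = 0.125). In such sums, more nuclei of a class that holds a gene and more RNA per nucleus cannot be told apart. Without the neutrophil nuclei the same number, 9 of 10, was called higher.

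**Figure D1:**
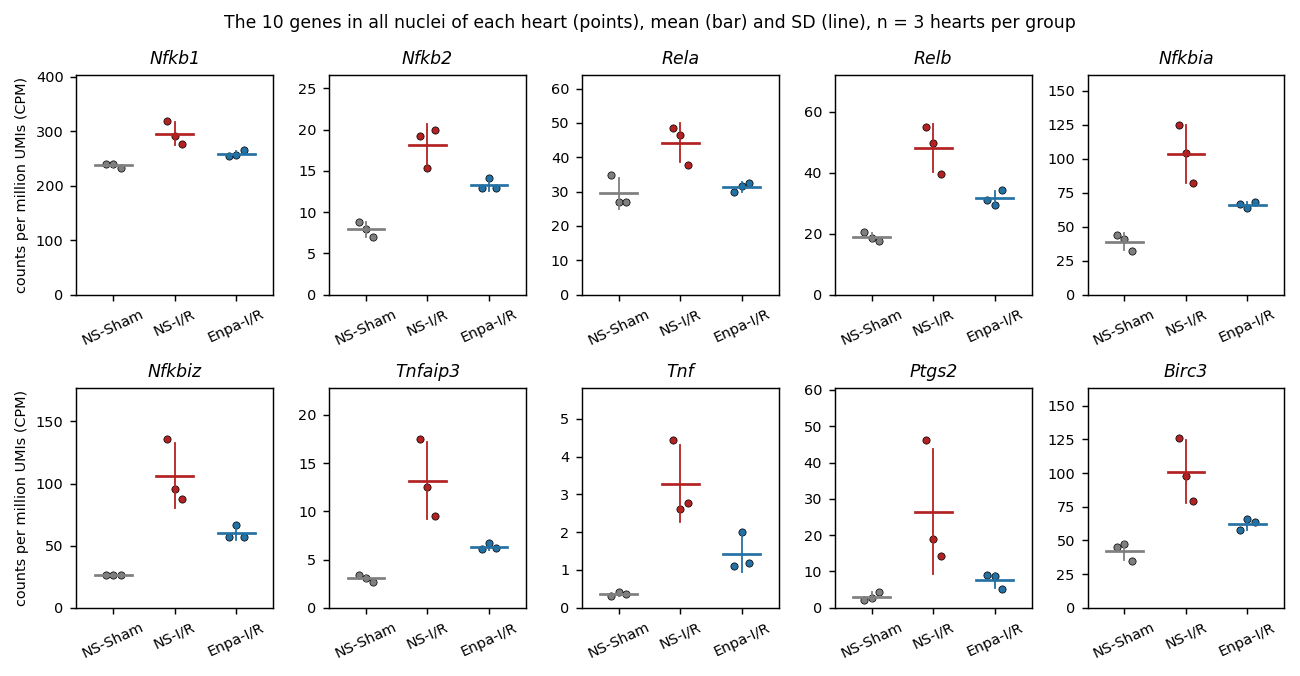
CPM (linear axis from 0, a separate scale for each gene) of the 10 genes in all nuclei of each heart, points being hearts, bars means and vertical lines SD (n = 3 per group). For every gene drawn the NS-I/R hearts lie above the sham hearts, by the narrowest margin for Nfkb1 and Rela. The share of all genes that separate in this way was not counted. The first NS-I/R heart is the highest of its group for 9 of the 10 genes drawn, Nfkb2 being the exception.

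Within classes the genes rose in 37 of 62 tests of a gene in a class, fell in 0, and had a positive fold change in 55. The remaining 18 of 80 pairs had too few counts to be tested. A gene tested in a class only because of its level after injury had to differ there, so the counts by class are given for orientation. Such pairs include Tnf and Ptgs2 in macrophages, Ptgs2 in fibroblasts, and Nfkb2 and Tnfaip3 in pericytes. Of the genes tested, 5 of 7 rose in cardiomyocytes (23.6% of all genes rose there), 6 of 8 in endothelial nuclei (18.1%), 7 of 8 in pericytes (12.2%) and 6 of 9 in fibroblasts (14.6%). Further, 5 of 10 rose in macrophages (18.0%), 3 of 7 in lymphatic endothelial nuclei (6.25%), 2 of 7 in endocardial nuclei (5.39%) and 3 of 6 in smooth muscle nuclei (3.13%). The endocardial count fell to 0 with DESeq2, and the smooth muscle count to 1, and each lymphatic or smooth muscle count reached 0 when 1 heart was left out.

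**Figure D2:**
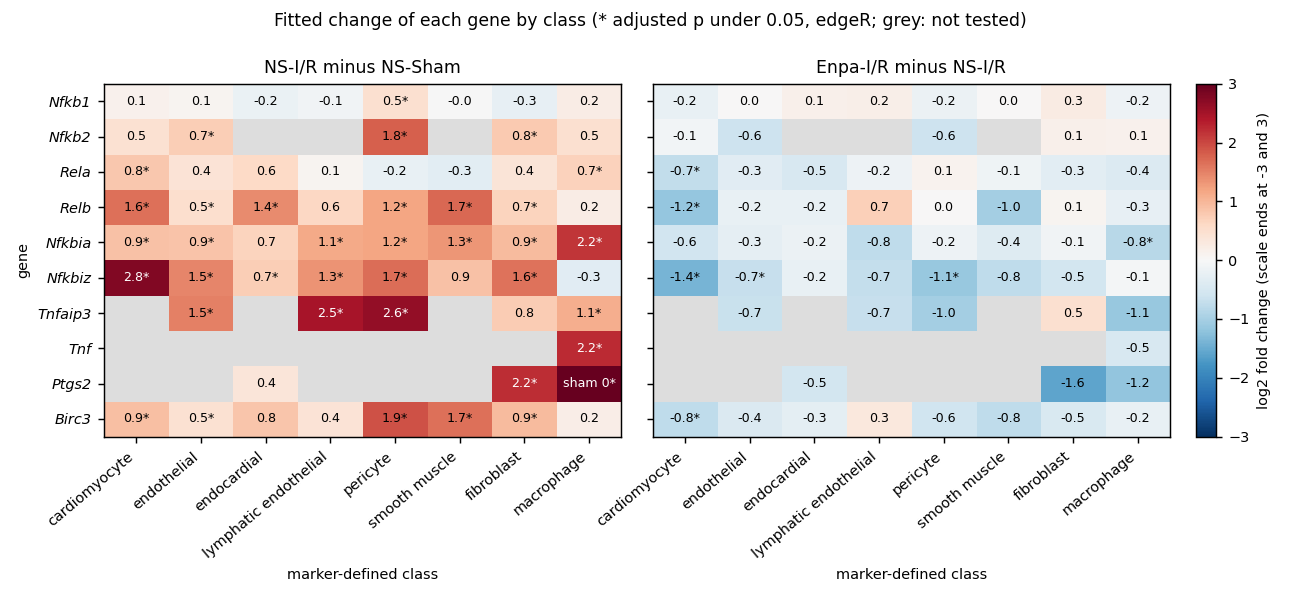
Fitted log2 fold change (colour and number, stars for edgeR adjusted p under 0.05, grey for pairs not tested) of each gene in each of the 8 tested classes, with injured saline-treated against sham hearts on the left and, on the right, enpatoran-treated against saline-treated injured hearts. The left panel is mostly red with 37 stars; the right is mostly pale blue with 7, 4 of them in cardiomyocytes. The pair marked "sham 0" is Ptgs2 in macrophages, which had 0 UMIs in sham, so that its fitted value is no estimate of size.

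The subunits differed among themselves. Nfkb1 (ENSMUSG00000028163), which encodes the precursor of p50, changed little across classes: it passed the test in 1 of 8, pericytes, at 0.47 ± 0.168 (log2, SE, edgeR adjusted p = 0.0489), and that call was lost under DESeq2 (adjusted p = 0.101) and in 8 of 9 fits that left out 1 heart. In sham hearts it was highest in fibroblasts, at 419 ± 3.74 CPM (SD, n = 3), and lowest in smooth muscle (180 ± 22.7) and cardiomyocyte nuclei (185 ± 4.17), which did not differ beyond their spread. Rela (ENSMUSG00000024927), which encodes p65, rose in 2 of 8 classes. In cardiomyocytes it went from 16.1, 11.3 and 10.4 CPM in sham to 26.3, 22.4 and 16.9 in NS-I/R hearts, without overlap but with the lowest injured heart close to the highest sham heart. The log2 fold change there was 0.80 ± 0.216 (SE, edgeR adjusted p = 0.0127), which missed the threshold without NS-Sham replicate 2 or 3 or NS-I/R replicate 1. In macrophages it was 0.69 ± 0.239 (edgeR adjusted p = 0.0347; 0.0767 with DESeq2), and in pericytes, the class with the highest sham level (89.9 ± 9.68 CPM, SD, n = 3), it was -0.22 (edgeR adjusted p = 0.369).

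The 2 subunits of the alternative pathway moved more widely. Relb (ENSMUSG00000002983), the partner of p52, rose in 6 of 8 classes, by log2 fold changes from 0.50 in endothelial to 1.72 in smooth muscle nuclei. In cardiomyocytes it lay at 8.07, 6.65 and 7.30 CPM in sham, at 26.9, 27.4 and 14.6 in NS-I/R and at 8.83, 9.48 and 11.7 in Enpa-I/R hearts. Every injured, saline-treated heart lay above every other heart. Its log2 fold change was 1.65 ± 0.256 (SE, edgeR adjusted p = 0.000686). In macrophages the sham and NS-I/R hearts overlapped (61.3, 35.5 and 51.2 against 65.4, 50.2 and 59.3 CPM), and the change of 0.23 did not pass the test (edgeR adjusted p = 0.483). Nfkb2 (ENSMUSG00000025225), the precursor of p52, had enough counts in 5 classes and rose in endothelial nuclei, fibroblasts and pericytes. In pericytes it went from 7.12, 10.5 and 1.69 CPM in sham to 17.1, 26.2 and 42.9 in NS-I/R hearts, a rise of 1.79 ± 0.434 on the log2 scale (SE, edgeR adjusted p = 0.00647) that came to 2.41 without NS-Sham replicate 2. In cardiomyocytes the hearts overlapped and the change of 0.47 did not pass (edgeR adjusted p = 0.12).

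Nfkbia and Nfkbiz, 2 relatives of the inhibitor family, followed different patterns by class. Nfkbia (ENSMUSG00000021025) encodes IkB-alpha, which holds NF-kB in the cytoplasm. Nfkbiz (ENSMUSG00000035356) encodes IkB-zeta, a nuclear relative that acts with NF-kB on a subset of its targets. Nfkbia rose in 7 of 8 classes and Nfkbiz in 6 of 8. In sham hearts Nfkbia was highest in endocardial (162 ± 35.6 CPM, SD, n = 3), endothelial (133 ± 15.9) and lymphatic nuclei (126 ± 30.6), which did not differ beyond their spread. Macrophages followed at 57.7 ± 27.9 and cardiomyocytes were lowest at 7.94 ± 0.434. After injury the macrophages reached the level of the endothelial classes: sham hearts lay at 86.4, 56.0 and 30.7 CPM, NS-I/R hearts at 324, 308 and 201, and Enpa-I/R hearts at 166, 137 and 167. The 3 groups did not overlap. The log2 fold change was 2.15 ± 0.265 (SE, edgeR adjusted p = 1.97e-05), and it passed the threshold in each fit that left out 1 heart. Within cluster 14, the larger macrophage cluster, it was 1.60 (edgeR adjusted p = 0.00168). Elsewhere Nfkbia rose by 0.85 (endothelial nuclei) to 1.32 (smooth muscle) and in endocardial nuclei its change of 0.67 did not pass the test (edgeR adjusted p = 0.0948).

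Nfkbiz showed no such rise in macrophages. There the sham hearts lay at 105, 154 and 115 CPM, the NS-I/R hearts at 144, 94.7 and 75.7 and the Enpa-I/R hearts at 105, 110 and 85.0, overlapping throughout, and the log2 fold change was -0.34 ± 0.234 (SE, edgeR adjusted p = 0.28). Without NS-I/R replicate 1 it was -0.63, which passed the threshold as a fall (edgeR adjusted p = 0.0451). Within cluster 14, with all hearts, it was -0.27 ± 0.265 (SE, edgeR adjusted p = 0.492). Macrophages were the tested class with the highest Nfkbiz in sham hearts (125 ± 25.8 CPM, SD, n = 3) and cardiomyocytes the lowest (3.29 ± 0.192). In cardiomyocytes Nfkbiz went from 3.51, 3.15 and 3.22 CPM in sham to 34.1, 18.2 and 15.8 in NS-I/R hearts and lay at 8.90, 10.3 and 6.38 in Enpa-I/R hearts. The groups did not overlap, and the first injured heart was the highest. The log2 fold change was 2.78 ± 0.322 (SE, edgeR adjusted p = 0.000135). In fibroblasts it rose from 49.0, 44.3 and 53.7 to 195, 197 and 101 CPM, in pericytes from 41.5, 44.9 and 37.1 to 196, 162 and 93.6, and in endothelial nuclei from 33.8, 34.0 and 44.3 to 122, 117 and 87.1. In these 3 classes the log2 fold changes were 1.63, 1.69 and 1.47. Cluster 12 held 31.1% of all Nfkbiz UMIs of the NS-I/R hearts, more than any tested class.

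**Figure D3:**
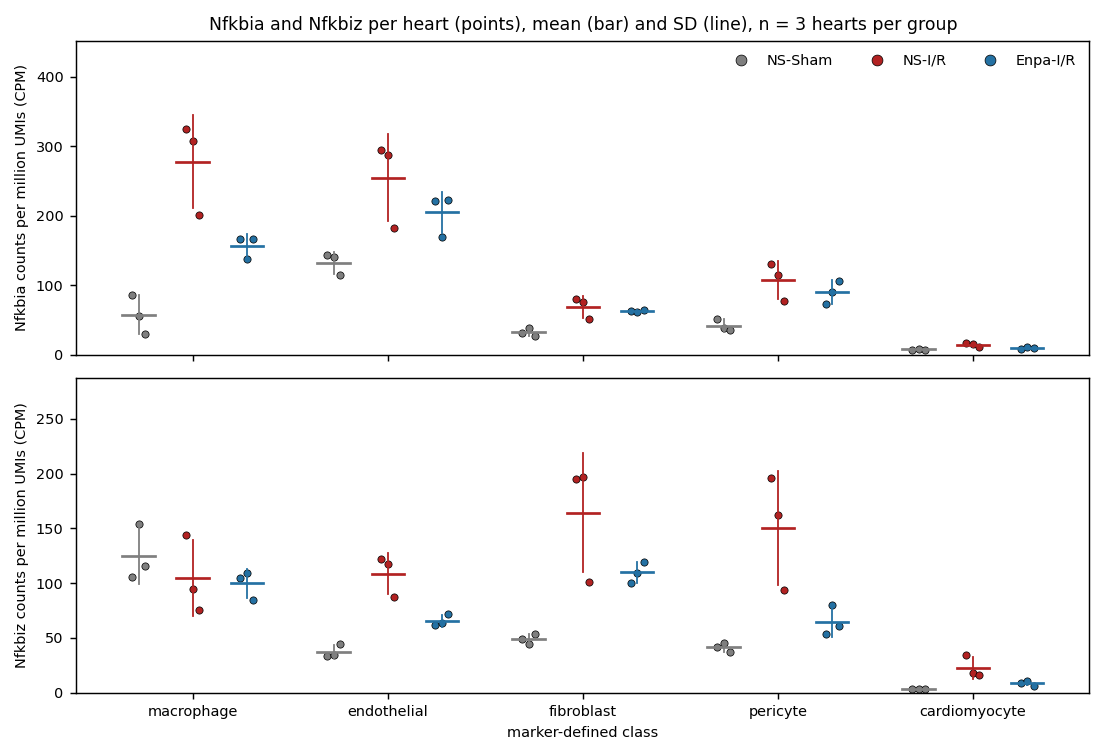
Nfkbia (top) and Nfkbiz (bottom) in CPM (linear axes from 0) in 5 classes, points being hearts, bars means and lines SD (n = 3 per group). Nfkbia in macrophages lies between 30.7 and 86.4 in sham and between 201 and 324 in NS-I/R hearts, whereas Nfkbiz in macrophages overlaps between all groups and rises in the 4 classes to its right.

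The difference between classes was itself tested for 3 classes against endothelial nuclei, as the injury effect in one class minus that in the other over the same hearts (limma, adjusted over all genes). The endothelial, cardiomyocyte and macrophage effects in it span the clusters that differ by group, and the difference was not tested within clusters. The Nfkbia effect was larger in macrophages by 1.44 ± 0.22 (log2, SE, limma adjusted p = 0.00036) and the Nfkbiz effect smaller there, at -1.77 ± 0.243 (limma adjusted p = 0.000148), among 15.2% of genes that differed in either direction. In cardiomyocytes the effects of Relb (1.08 ± 0.221, limma adjusted p = 0.00432) and Nfkbiz (1.20 ± 0.273, limma adjusted p = 0.00825) were larger than in endothelial nuclei, where 19.4% of genes differed. In fibroblasts 0 of 8 genes differed from endothelial nuclei by limma (10.0% of all genes did), while Nfkb1 and Birc3 had unadjusted limma p of 0.00709 and 0.0149.

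The cardiomyocyte calls depended on which clusters were summed. Cluster 3, led by the injury-responsive actin-binding gene Xirp2, held 297, 390 and 237 nuclei of the NS-I/R hearts, 89, 50 and 59 of the Enpa-I/R hearts and 0 of sham hearts. Without it, 3 of the 5 genes were called higher after injury: Nfkbiz (1.71, edgeR adjusted p = 0.00112), Relb (1.03, 0.00663) and Nfkbia (0.92, 0.00554). Rela and Birc3 were not called. Within cluster 1, which holds nuclei of all groups, 7 genes were tested and 0 called: Relb was at -0.00 and Birc3 at -0.37 (edgeR adjusted p = 0.999 and 0.516) and Nfkbiz at 0.97 (0.191). In cluster 0 the counts allowed a test of Nfkb1 alone, so the called genes have no value there. In endothelial nuclei, 1, 2 and 2 of 7 tested genes were called within clusters 6, 7 and 8, against 6 of 8 in the whole class. In cluster 11, the larger fibroblast cluster, 6 were called, as in the whole class. The finer clustering divided fibroblasts by group, and the genes were not tested within its clusters.

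Tnfaip3 and Birc3 encode enzymes of the ubiquitin system. Tnfaip3 (ENSMUSG00000019850) encodes A20, which trims the ubiquitin chains that carry the signal. Birc3 (ENSMUSG00000032000) encodes cIAP2, a ligase that acts on the receptor complex and restrains cell death. Tnfaip3 rose in 4 of the 5 classes with enough counts. In pericytes it went from 2.37, 3.69 and 0 CPM in sham to 18.4, 22.4 and 14.3 in NS-I/R hearts (log2 fold change 2.63 ± 0.603, edgeR adjusted p = 0.00435; 3.44 without NS-Sham replicate 2). In endothelial nuclei it went from 6.03, 7.10 and 8.44 to 22.7, 25.9 and 16 CPM (1.51 ± 0.251, edgeR adjusted p = 0.000514). In both classes every injured heart lay above every sham heart. With 8 UMIs in sham pericytes, Tnfaip3 could be tested in that class only through the injured hearts, so its values there are a description. Its macrophage call (1.10, edgeR adjusted p = 0.049) had overlapping hearts and was lost with DESeq2 (adjusted p = 0.0812). Neutrophils held 23.6% of the Tnfaip3 UMIs of NS-I/R hearts, the largest share of any class.

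Birc3 rose in 5 of 8 classes, most in pericytes, from 46.3, 51.7 and 35.4 CPM in sham to 216, 227 and 134 in NS-I/R hearts (log2 fold change 1.91 ± 0.214, edgeR adjusted p = 7.91e-06). The lowest of the injured hearts lay far above the highest sham heart. In sham hearts the tested class with the most Birc3 was macrophages (204 ± 58.4 CPM, SD, n = 3), and there NS-I/R hearts overlapped sham hearts (0.21, edgeR adjusted p = 0.49). Its rise in smooth muscle nuclei (1.65, edgeR adjusted p = 0.0479) was lost in 8 of 9 fits that left out 1 heart. Of the 46 calls after injury, in classes and in all nuclei, 16 were lost on leaving out at least 1 heart, and the other 30 were kept in all 9 such fits.

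Tnf and Ptgs2 are classical products of the pathway. Tnf (ENSMUSG00000024401), the cytokine that also activates NF-kB, had 23 UMIs over the sham hearts, 213 over the NS-I/R hearts and 87 over the Enpa-I/R hearts. In NS-I/R hearts macrophages held 84 of them, neutrophils 49 and cluster 10 held 42; in sham hearts macrophages held 10 and endothelial nuclei 9. In macrophages, the 1 class where it could be tested, it went from 1.57, 5.60 and 7.68 CPM in sham to 26.3, 26.5 and 19.5 in NS-I/R hearts. These hearts did not overlap, and the log2 fold change was 2.25 ± 0.433 (SE, edgeR adjusted p = 0.000906). With 10 UMIs in sham macrophages, Tnf could be tested there only through the injured hearts. The call and the lack of overlap are therefore a description. Within the larger macrophage cluster it was 2.30 (edgeR adjusted p = 0.00366). Lymphatic endothelial and smooth muscle nuclei had 0 Tnf UMIs in every heart.

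Ptgs2 (ENSMUSG00000032487) encodes cyclooxygenase-2, the inducible enzyme of prostaglandin synthesis. In sham hearts 112 of its 183 UMIs lay in endocardial nuclei, at 48.3, 60.9 and 127 CPM, and this class did not change detectably (90.6, 135 and 78.0 CPM in NS-I/R hearts, log2 fold change 0.36, edgeR adjusted p = 0.669). In NS-I/R hearts 1059 of 1700 UMIs (62.3%) lay in cluster 12, where the hearts stood at 446, 98.4 and 61.8 CPM. The first heart alone was thus far above the others, as it was in all nuclei. Fibroblasts rose from 3.82, 4.25 and 9.20 to 18.1, 50.6 and 12.3 CPM (2.20 ± 0.481, edgeR adjusted p = 0.00523), and by 1.37 without NS-I/R replicate 2 (edgeR adjusted p = 0.0267). Macrophages had 0 UMIs in sham and 70 in NS-I/R hearts, a level at least 13.9-fold higher than 3 counts in the sham hearts together would give. Free RNA, estimated as described with the markers of other cells, could amount to 19.4% to 84.6% of these Ptgs2 UMIs by heart.

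**Figure D4:**
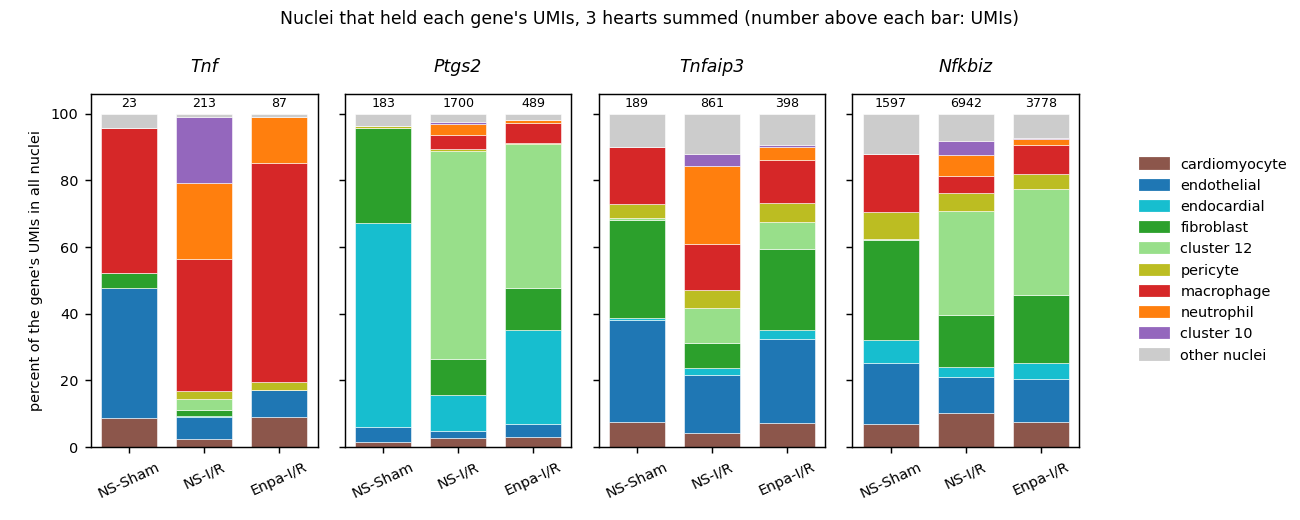
Percent of all UMIs of Tnf, Ptgs2, Tnfaip3 and Nfkbiz found in each class or cluster, with the 3 hearts of a group summed (bars from 0 to 100%, number of UMIs above each bar). Ptgs2 shifts from endocardial nuclei in sham (61.2%) to cluster 12 in NS-I/R (62.3%), and Tnf in NS-I/R hearts is split between macrophages, neutrophils and cluster 10.

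RNA from broken cells can enter any droplet, and markers of other cells moved with the groups. The 7 neutrophil markers summed to between 0.297 and 1.75 CPM in cardiomyocyte nuclei of sham hearts, with Mmp8 and Retnlg at 0, to 21.6 to 66.4 in NS-I/R and to 13.5 to 26.4 in Enpa-I/R hearts. In endothelial nuclei the sums were 0.734 to 1.58, 82.5 to 216 and 40.3 to 57.9 CPM. In pericytes they were 0.615 to 1.69, 71.1 to 199 and 27.5 to 71.7. In macrophages, which share some of these genes, they were 58.9 to 78.6, 286 to 766 and 195 to 233. Free RNA was put into numbers from the neutrophil, macrophage, fibroblast and endothelial markers found in a class. The amount is the UMIs of each gene that would accompany them, at the ratio of gene to marker in the class those markers define. Cluster 12, which carries fibroblast markers, was counted with the fibroblasts for this ratio. The markers that define a class were not used for that class itself.

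For cardiomyocytes of NS-I/R hearts that amount was 10.3% to 13.9% of the measured Rela, 11.0% to 18.1% of Relb and 28.0% to 40.3% of Nfkbiz. It was 50.8% to 54.1% of Nfkbia and 42.3% to 61.9% of Birc3. For Ptgs2 (111% to 202%) it passed what was measured in every heart, so by this estimate its level in cardiomyocytes cannot be told apart from free RNA. For Tnfaip3 it ran from 58.1% to 180% by heart. In sham cardiomyocytes the amount for Nfkbia was 18.2% to 28.3%, lower than after injury, and in Enpa-I/R hearts it was 43.0% to 53.5%. For Nfkbiz it was 33.6% to 48.7% in sham and 52.6% to 67.8% in Enpa-I/R cardiomyocytes. In endothelial nuclei of NS-I/R hearts the amount was 9.01% to 11.7% of Nfkbia and 20.84% to 25.55% of Nfkbiz. There it was 18.1% to 24.7% of Tnfaip3 and 90.1% to 190.5% of Ptgs2. The amounts that follow are again for NS-I/R hearts unless another group is named. In pericytes it was 13.7% to 18.9% of Birc3, 17.1% to 29.4% of Nfkbiz and 22.2% to 27.8% of Tnfaip3, and in macrophages 13.4% to 23.9% of Nfkbia and 7.87% to 10.3% of Tnf. In macrophages it was higher for Tnfaip3 (28.7% to 32.6%), Nfkbiz (34.6% to 46.5%) and Ptgs2. In sham macrophages the amount for Nfkbiz was 2.2% to 3.2%, lower than after injury. Smooth muscle nuclei had 33.1% to 78.9% for Relb, 54.1% to 118% for Nfkbia and 44.4% to 129% for Birc3. For fibroblasts no gene but Tnf passed 35.2%, but this amount leaves out free RNA from cluster 12, which carries fibroblast markers. That cluster held 62.3% of the Ptgs2, 31.1% of the Nfkbiz and 21.6% of the Birc3 UMIs of NS-I/R hearts. The amount for fibroblasts can therefore be too low, and by how much was not tested. Endocardial and lymphatic nuclei carry endothelial markers of their own, so no such amount is given for them. The part of free RNA in the fold changes was not tested.

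**Figure D5:**
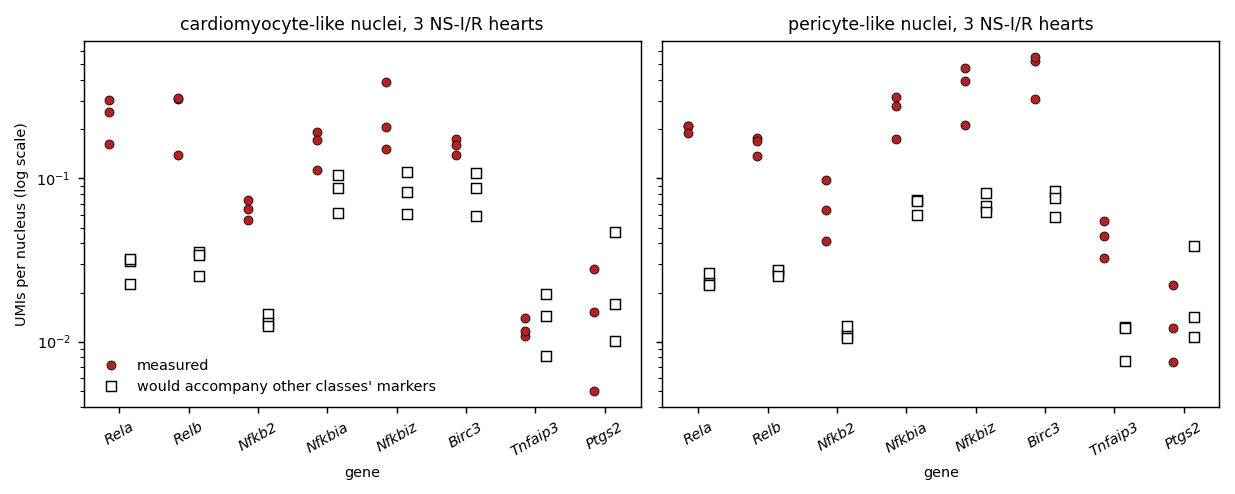
UMIs per nucleus (log axis) of 8 genes in cardiomyocyte and pericyte nuclei of the 3 NS-I/R hearts. Filled circles are measured values, and open squares are the UMIs that would accompany markers of other classes. Circles lie well above squares for Rela and Relb in both classes, come close for Nfkbia and Birc3 in cardiomyocytes, and lie among or below the squares for Tnfaip3 in cardiomyocytes and for Ptgs2 in both.

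Hearts of mice given enpatoran had lower levels than saline-treated injured hearts for 7 of the 10 genes in all nuclei, against 8.74% of all genes tested. The called genes were Ptgs2, Tnf, Tnfaip3, Nfkbiz, Birc3, Nfkbia and Relb. Ptgs2 differed most, at -1.71 ± 0.427 (log2, SE, edgeR adjusted p = 0.0278), but came to -1.05 without NS-I/R replicate 1 (edgeR adjusted p = 0.0895). Tnf was at -1.12 ± 0.304 (log2, SE, edgeR adjusted p = 0.0348) and Tnfaip3 at -0.97 ± 0.217 (edgeR adjusted p = 0.0208). Nfkbiz was at -0.73 ± 0.154 (edgeR adjusted p = 0.0178). For all 10 genes the 3 Enpa-I/R hearts lay below the 3 NS-I/R hearts, but the share of all genes that did so was not counted. Neutrophils were also fewer (57 to 156 per heart against 392 to 563), and without them 2 genes remained called, Nfkbiz (-0.73) and Ptgs2 (-1.74), the other 5 having adjusted p of 0.0503 to 0.0801. With the 6 injured hearts alone in the fit, edgeR called 0 of the 10, the 7 genes having adjusted p of 0.0575 to 0.0866. DESeq2 on all 9 hearts called 8, and 9 of 10 were lower at an unadjusted edgeR p under 0.05, as were 17.9% of all genes.

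Within classes, the difference passed the test for 7 of 62 pairs, all lower, and 49 pairs had a negative sign. In cardiomyocytes 4 of 7 genes were lower (11.1% of all genes were): Nfkbiz by -1.39 ± 0.294 (log2, SE, edgeR adjusted p = 0.0173), Relb by -1.16 ± 0.249 (0.018), Birc3 by -0.75 ± 0.195 (0.0287) and Rela by -0.73 ± 0.215 (0.0405). Without cluster 3, 0 of 7 were called, and in clusters 1, 2 and 3 taken singly 0 of 7 were called. In cluster 0 these 4 genes had too few counts to be tested. In pericytes 1 of 8 was lower (2.95% of all genes), Nfkbiz, at 53.1, 80.0 and 60.6 CPM against 196, 162 and 93.6, a log2 fold change of -1.14 ± 0.24 (edgeR adjusted p = 0.0147). The highest treated heart lay below the lowest untreated one. In endothelial nuclei 1 of 8 was lower (4.12% of all genes), again Nfkbiz, at 61.3, 63.4 and 71.4 against 122, 117 and 87.1 CPM (-0.70 ± 0.16, edgeR adjusted p = 0.025). In macrophages 1 of 10 was lower (3.41% of all genes), Nfkbia, at -0.83 ± 0.231 (edgeR adjusted p = 0.044). The count of tested genes in each of these 3 classes is small, so a single call lies near its background.

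In the other classes edgeR called 0 genes lower. The share of all genes that edgeR called lower at the adjusted threshold was 0.92% in fibroblasts, 0.241% in endocardial, 0.381% in lymphatic and 0.0% in smooth muscle nuclei. It was 0.87% in neutrophils and 0.0% in cluster 12, which were fitted on the 6 injured hearts. At an unadjusted p under 0.05, 3 of 9 genes were lower in fibroblasts (12.2% of all genes; DESeq2 called 1), where 5 of 9 had a negative sign and Nfkb1 was higher at that p (log2 fold change 0.25). At that p 0 of 7 were lower in endocardial nuclei (7.87% of all genes; DESeq2 called 0), 2 of 7 in lymphatic nuclei (6.36%; DESeq2 0) and 1 of 6 in smooth muscle nuclei (5.93%; DESeq2 0). In neutrophils 3 of 9 were lower at that p (9.19% of all genes; DESeq2 0), among them Tnfaip3, at 129, 134 and 39.8 CPM without enpatoran and 51.9, 19.7 and 31.4 CPM with it (log2 fold change -1.60, edgeR adjusted p = 0.163). Cluster 12 had 2 of 9 at that p (11.6% of all genes; DESeq2 1), Nfkbia and Ptgs2. Its Ptgs2 lay at 43.7, 69.6 and 49.7 CPM, overlapping the NS-I/R hearts (-1.92 ± 0.66, edgeR adjusted p = 0.152). Each of the 14 calls between treated and untreated injured hearts, 7 in all nuclei and 7 in classes, was lost without Enpa-I/R replicate 1 and likewise without Enpa-I/R replicate 3.

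Other genes of the pathway were taken from 5 lists of known members. Of the other subunits and IkB proteins, 4 of 5 rose in all nuclei after injury (23.9% of all genes did) and 0 fell (median log2 fold change 1.08, against 0.00 over all genes tested). Bcl3, a nuclear IkB protein that works with p50 and p52, rose in fibroblasts from a mean of 10.3 to 63.9 CPM (2.52 ± 0.32, SE, edgeR adjusted p = 0.000193) and in endothelial nuclei by 1.54. Rel, which encodes c-Rel, rose by 0.72 in cardiomyocytes, and Nfkbid, another nuclear IkB gene, by 0.93 in macrophages. Of 5 TNF family receptors, 4 rose in all nuclei (23.9% of all genes did) and 0 fell (median 1.07). Tnfrsf12a, the receptor for TWEAK, rose in cardiomyocytes from 11.8 to 55.8 CPM (2.25 ± 0.214, edgeR adjusted p = 5.06e-05), in endothelial nuclei by 2.47 and in fibroblasts by 2.33. Tnfrsf1a, the main TNF receptor, rose by 1.29 in endothelial nuclei, 1.36 in fibroblasts and 0.69 in macrophages, while Cd40 fell in macrophages (-1.28). Of 16 kinases and adaptors, 6 rose (23.9% of all genes did) and 0 fell in all nuclei (median 0.27). Traf5, an adaptor, fell in macrophages (-1.06) and fibroblasts (-0.97), and the kinase gene Ripk1 rose by 0.96 in cardiomyocytes.

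A list of 14 genes of ubiquitin editing and other brakes, not all of them restraints, moved both ways. Of these, 7 rose and 2 fell in all nuclei (median 0.24), where 23.9% of all genes rose and 23.9% fell. Zc3h12a, which encodes a nuclease that destroys inflammatory mRNAs, rose by 1.62 in macrophages and 0.94 in fibroblasts. Otulin, which encodes a deubiquitinase of linear chains, rose by 0.93 in cardiomyocytes. Cyld, another deubiquitinase gene, fell in endothelial nuclei (-0.84), as did Rbck1 (-0.83), which encodes a part of the ligase that builds linear chains. Of 21 textbook targets tested, 15 rose (23.9% of all genes did) and 0 fell in all nuclei (median 1.63). In macrophages 13 of 16 rose (18.0% of all genes) and 1 fell, and Cxcl2, a chemokine that attracts neutrophils, went from 4.80 to 435 CPM (6.17 ± 0.643, edgeR adjusted p = 3.84e-06). In pericytes 11 of 12 rose (12.2% of all genes) and 0 fell, in endothelial nuclei 10 of 15 rose (18.1%) and 2 fell, and in fibroblasts 10 of 12 rose (14.6%) and 1 fell. In cardiomyocytes 9 of 13 rose (23.6%) and 0 fell, and the stress gene Ier3 rose by 3.37. Between Enpa-I/R and NS-I/R hearts, 10 of 21 targets were lower (8.74% of all genes) and 0 higher in all nuclei (median -0.85). By class, 6 of 13 were lower in cardiomyocytes (11.1% of all genes), 6 of 15 in endothelial nuclei (4.12%), 5 of 16 in macrophages (3.41%), 5 of 12 in pericytes (2.95%) and 1 of 12 in fibroblasts (0.92%). Targets lower were 0 of 10 in endocardial, 0 of 3 in lymphatic and 0 of 3 in smooth muscle nuclei. They were 0 of 13 in neutrophils and 0 of 13 in cluster 12. The other lists moved less in all nuclei, with 0 genes higher. Lower were 0 of 5 other subunits and IkB proteins and 2 of 5 receptors. So were 3 of 16 kinases and adaptors and 4 of 14 brakes. Il6, the cytokine gene, was lower in macrophages, at 4.64 against 46.4 CPM (-3.32 ± 0.462, edgeR adjusted p = 0.00113), and Csf1, a growth factor for macrophages, in cardiomyocytes (-1.62 ± 0.326, edgeR adjusted p = 0.0155). For genes of these lists, Cxcl2, Il6 and Csf1 among them, no free RNA amounts are given. Nor are fits within clusters or with left-out hearts, so their values by class carry those limits.

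Measured per nucleus, the same 2 inhibitors separated in macrophages. After every nucleus was thinned to 1000 UMIs, 5.65% ± 4.97 (SD, n = 3) of sham, 23.2% ± 5.92 of NS-I/R and 13.2% ± 2.70 of Enpa-I/R macrophage nuclei had an Nfkbia UMI, with 103, 189 and 110 shallower nuclei left out. Unthinned, these shares were 12.1%, 40.3% and 27.3%. Each step gave an exact two-sided permutation p of 0.1, the smallest that 3 against 3 hearts allow. For Nfkbiz the thinned shares were 9.56% ± 1.84, 10.0% ± 3.53 and 8.53% ± 2.11 (unthinned 20.0%, 18.9% and 19.1%; exact permutation p = 1.0 and 0.7). Thinned cardiomyocyte nuclei had an Nfkbia UMI in 0.905%, 1.82% and 1.15% of nuclei, at median depths of 6455 to 10500 UMIs against 1902 to 3241 in macrophages before thinning.

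Across the 24 combinations of 8 classes and 3 groups, the genes whose mean levels followed each inhibitor most closely among 9664 genes were Clic1 (Pearson r = 0.959), Mapk3 (0.935) and Ppp1r18 (0.932) for Nfkbia, and Fam76b (0.941), Kat7 (0.927) and Sf3b6 (0.927) for Nfkbiz. For Tnfaip3 they were Anp32b (0.915), Mvp (0.912) and Elf4 (0.91), and for Birc3 Cybc1 (0.95), Tubgcp4 (0.946) and Brip1os (0.945). These correlations describe points that share hearts, libraries and depth.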

How the data were processed

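Nuclei of 9 mouse hearts were sequenced by droplet 3' RNA-seq, and the authors deposited a raw count matrix of UMIs per gene and barcode for each heart. The matrices were written by Cell Ranger 8.0.0 per the file headers, while the submitters' processing notes name Cell Ranger 6.1.1, Seurat, GRCh38 and GRCm39 without saying which served for what. Intron counting and the annotation release are not given in the sources used here. Library totals were 19651794 to 38970153 UMIs.

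Barcodes with at least 500 genes and at most 5% mitochondrial UMIs were kept, and the highest Scrublet scores (0.8% per 1000 barcodes) were removed as doublets, because Scrublet's own threshold called 0 in 5 libraries. Clustering (scanpy 1.11.5) used 2000 variable genes without the 10 genes and the pathway lists, 30 principal components, 15 neighbours and Leiden resolution 1. A class was named from at least 3 fixed markers. UMIs were summed by class and heart and tested with edgeR 4.0.16 (quasi-likelihood, TMM, Benjamini-Hochberg over all genes) over 9 hearts, or over the 6 injured hearts for neutrophils and cluster 12. A fold change is on the log2 scale, and its SE is its size over the square root of the F statistic. Differences between classes used limma 3.58.1. The tests were checked on simulated counts. Shares used exact permutation tests, with 0.1 as the smallest possible p. DESeq2 1.42.0, other filters, other clusterings and left-out hearts were alternatives. Pathway genes named are at most 2 called genes of largest change per list, class and contrast among cardiomyocytes, endothelial nuclei, fibroblasts and macrophages with a mean of at least 10 CPM. The genes and lists were chosen with earlier results of these data known. PCR duplicates were collapsed by UMI, so counts carry counting error and the spread between hearts.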

Additional observations from a re-analysis of the deposited data

Results flagged for a closer look

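The effect of ischemia and reperfusion differed between classes for 4 combinations of gene and class, each by a limma test of the difference itself against endothelial nuclei. Nfkbia responded more in macrophages, by 1.44 on the log2 scale (limma adjusted p = 0.00036). Nfkbiz responded less in macrophages, by a difference of -1.77 (limma adjusted p = 0.000148). In cardiomyocytes Relb responded more, by 1.08 (limma adjusted p = 0.00432), and so did Nfkbiz, by 1.2 (limma adjusted p = 0.00825). Of all genes, 15.2% differed from endothelial nuclei in macrophages and 19.4% in cardiomyocytes, in either direction. The effects span clusters that differ by group and were not tested within clusters. The free RNA amount for Nfkbiz in macrophages was 2.2% to 3.2% in sham and 34.6% to 46.5% in NS-I/R hearts. Its part in these differences was not tested.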

How the results depend on the processing

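Of 834 alternative values for the 46 calls after injury, 719 kept direction and side of the threshold, 110 missed the threshold and 5 changed sign. For the 14 calls between treated and untreated hearts, the same numbers were 142, 123 and 2 of 267. Among results without a call, 14 of 467 alternative values after injury and 44 of 1269 between treatments passed the threshold. The cause of these changes was not tested.

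Counts of genes called higher after injury moved as follows. Cardiomyocytes gave 3 without cluster 3 and 0 of 7 within cluster 1. Within cluster 0 only Nfkb1 had enough counts to be tested, so its 0 in either comparison says nothing of the called genes. Endothelial nuclei gave 1 within cluster 6, 2 within cluster 7 and 2 within cluster 8. Fibroblasts gave 0 within cluster 13. Macrophages gave 3 with DESeq2, 3 with 6 hearts in the fit and 3 within cluster 14. Endocardial nuclei gave 5 without a filter on low counts, 0 with DESeq2, 1 with 6 hearts and 1 at Leiden resolution 2. Smooth muscle nuclei gave 1 with DESeq2, 1 with 6 hearts and 1 at a mitochondrial limit of 20%.

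Counts of genes called lower with enpatoran moved as follows. All nuclei gave 3 with a replicate block, 0 with 6 hearts and 2 without neutrophils. Cardiomyocytes gave 0 with 6 hearts, 0 without cluster 3 and 0 of 7 within each of clusters 1, 2 and 3. Endothelial nuclei gave 3 at Leiden resolution 2 and 0 within each of clusters 6, 7, 8 and 9. Macrophages gave 2 without a filter and 0 within cluster 14 or 16. Fibroblasts gave 2 without a filter, 1 with DESeq2, 2 at the mitochondrial limit of 20% and 2 with cluster 12 added. At the limit of 20% a cluster led by Tnc was itself named fibroblast, so that setting changed the class as well as the limit. Neutrophils gave 2 without a filter and 2 with a replicate block. Cluster 12 gave 3 without a filter and 1 with DESeq2.

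The sign changed after injury within cardiomyocyte cluster 1 for Relb (-0.00) and Birc3 (-0.37), and within endothelial cluster 6 for Relb (-0.17), Birc3 (-0.16) and Nfkb2 (-0.29). Between treatments it changed within cardiomyocyte cluster 1 for Birc3 (0.12) and Nfkbiz (0.14).

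Leaving out 1 heart at a time gave these ranges of genes called after injury: all nuclei 8 to 10, cardiomyocytes 5 to 7, endothelial nuclei 4 to 8, fibroblasts 4 to 7, macrophages 3 to 5, pericytes 6 to 7, endocardial nuclei 1 to 3, lymphatic nuclei 0 to 3 and smooth muscle nuclei 0 to 3. Between treatments the ranges were 0 to 8 in all nuclei, 0 to 7 in cardiomyocytes, 0 to 4 in endothelial nuclei, 0 to 3 in fibroblasts, 0 to 3 in macrophages, 0 to 4 in neutrophils, 0 to 2 in pericytes, 0 to 1 in lymphatic nuclei and 0 to 6 in cluster 12. The class differences ranged from 0.93 to 1.27 for Relb and 0.95 to 1.38 for Nfkbiz in cardiomyocytes, and from 1.16 to 1.72 for Nfkbia and -1.95 to -1.53 for Nfkbiz in macrophages.

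Same-numbered hearts of different groups did not deviate together (correlations of -0.141 to 0.0535 over 9 pairs, against -0.0856 to 0.136 over 18 other pairs), so the numbers were not taken as pairs, and the replicate block is an alternative only. The median log2 fold change of all genes after injury moved most in pericytes, from 0.03 with TMM to 0.17 from log2(CPM + 1) on total UMIs, followed by fibroblasts, from 0.01 to 0.13. Shares of nuclei with a UMI depend on depth, and low shares are near the level of 1 UMI.

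The 4 alternatives on clusters 3 and 12 and on neutrophils were chosen after seeing the data.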
